A study of Homo sapiens with 8 samples.

Results

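Cells of HT-29, an established human cell line of colorectal adenocarcinoma, were compared after exposure to the 74 3NP extract, made from the rice MRQ 74, and after exposure to 5-fluorouracil (5-FU), by RNA sequencing at 24 h and 48 h. The comparison rests on 4 of the 8 libraries of the study, 2 with the extract and 2 with 5-FU, chosen by their titles and paired by time. It covers 13388 of the 60796 genes in the deposited table, namely those that reached an FPKM (read density scaled to gene length and to library depth) of 1 in 2 or more of the 8 libraries. The other 4 libraries were 2 of control cells and 2 of cells given the 76 3P extract, from the rice MRQ 76. Each treatment at each time had 1 library, the labels give the cell type as enterocyte, and they apply the word batch to the time. The labels' treatment field reads plant extract for all 8 libraries, controls and 5-FU included, so groups were taken from the titles. Rice extracts were given at their IC50, an inhibitory concentration, per the labels. The sources used here give neither the dose of 5-FU nor what the controls received, nor the meaning of 3NP.

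5-FU is converted in cells to nucleotides that block thymidylate synthase, the enzyme that makes dTMP for DNA, and that are built into RNA, where they disturb ribosome production. Cells halted in S phase by lack of dTMP can hold transcripts of DNA replication and repair at high levels, and p53 target genes are a common part of the response, although HT-29 cells carry a mutant p53. Plant extracts often contain compounds that bind the aryl hydrocarbon receptor, a transcription factor that turns on cytochrome P450 genes of family CYP1. In colon epithelium, chemokines, lipocalin and serum amyloid A are made under the control of NF-kB, a transcription factor of inflammation.

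Reads on genes ranged from 18141663 to 23324977 in the 4 libraries compared. All 10 colon epithelial markers were measured, with summed FPKM of 1920 to 2720 in these 4 libraries. Of 8 fibroblast markers only COL1A1 passed the filter, with sums of 2.34 and 2.11 with 5-FU and 4.25 and 3.56 with the extract. Of 9 leukocyte markers LYZ, which colon epithelium also makes, and CD14 passed; without LYZ the sums were 2.59 and 4.29 with 5-FU and 8.11 and 8.08 with the extract, and PTPRC, which encodes the leukocyte marker CD45, was at 0 in both extract libraries. None of 5 endothelial markers passed. Mitochondrial transcripts took 4.62% and 5.52% of reads with 5-FU against 3.12% and 4.07% with the extract, and the GC content of all filtered reads was 52.1% and 53.2% against 53.9% and 52.6%. With a correction for the GC content of genes, 1453 genes passed the test described next, against 1445 without it, and 1166 of them were the same genes. The part of the marker and mitochondrial values in the results was not tested. In RNA from whole cultures, fewer cells of a kind and less RNA per cell cannot be told apart.

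Differences are given on the log2(FPKM + 1) scale as extract minus 5-FU, averaged over both times, with a standard error (SE) and the adjusted p of limma, with n = 2 libraries per treatment. The scale understates fold changes of genes with low FPKM. Of the genes tested, 817 (6.1%) were higher and 628 (4.69%) were lower with the extract at an adjusted p under 0.05, and 4277 had an unadjusted p under 0.05. Counts of list members past the test, given below, are to be read beside these shares. No gene was past the test once the 5-FU 48 h library, the extract 24 h library or the extract 48 h library was left out, with 2723, 2500 and 2525 genes at an unadjusted p under 0.05, respectively. All the calls therefore rest on these libraries jointly. With no filter on FPKM no gene was past the limma test either, with 5378 at an unadjusted p under 0.05. Fewer genes were past the test without the control 24 h or the control 48 h library. More were past it without the 5-FU 24 h library or without either 76 3P library. The control and 76 3P libraries enter only through the shared spread, so the number of calls depends on libraries outside the comparison. Every one of the 1445 differences kept its sign in each of the 20 alternatives in which the gene was measured. Several of these change only the spread and could not move a difference. They are no variance trend, no time term, only the 4 libraries compared, and leaving out a control or 76 3P library. All 817 higher and 628 lower genes also had 1 sign at both times, so the kept signs are no separate support. By size alone, 1200 genes (8.96%) were at least 1.5-fold higher and 891 (6.66%) at least 1.5-fold lower with the extract at both times. The filter kept 27 of the higher genes only through the extract libraries and 52 of the lower ones only through the 5-FU libraries, where these genes were high; of the genes named below, KRT23, KRT6B, NOTUM and ERP27 are among them. A difference at a single time sets 1 library beside another and has no test.

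The contrast was larger at 48 h than at 24 h for most genes. Among the higher genes the median difference was 1.00 at 24 h and 1.18 at 48 h, and 571 of 817 (69.9%) had the larger difference at 48 h. Among the lower genes the medians were -0.94 and -1.15, and 422 of 628 (67.2%) had the larger difference at 48 h. The same held for 61.8% of all genes tested, among which 1058 differed at least 2-fold at 24 h and 2121 at 48 h. The 5-FU 48 h library lay farthest from the controls of these 4 on the leading principal component.

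**Figure D1:**
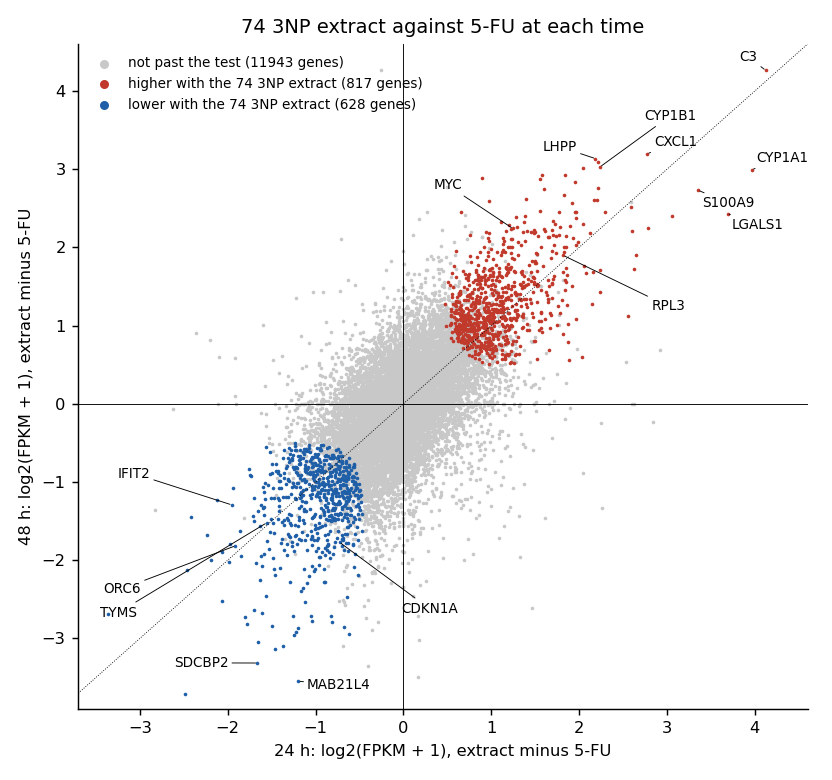
Difference between the 74 3NP extract and 5-FU at 24 h (x axis) and at 48 h (y axis) for the 13388 genes tested, both in log2(FPKM + 1); each point is a gene and the dotted line marks equal differences. Genes past the limma test lie in the upper right (817 higher with the extract) and the lower left (628 lower), and no called gene lies elsewhere.

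The control libraries place each difference. For the lower genes, control cells were nearer to the extract than to 5-FU in 522 of 628 (83.1%), with a median difference from control of -0.26 for the extract and 0.81 for 5-FU. For the higher genes they were nearer to the extract in 566 of 817 (69.3%), with medians of 0.31 and -0.75. Over all genes tested, whether called or not, 8426 (62.9%) had the control nearer to the extract. Control cells lay below both treatments in 47 of the higher genes and above both in 150, and 620 lay between the treatments. Both treatments were set against the same 2 control libraries, so their differences from control are not independent of each other.

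Of 10 tested genes of the aryl hydrocarbon receptor and its targets (of 11 listed), 3 were higher with the extract and none lower, against 6.1% and 4.69% of all genes. CYP1A1, a cytochrome P450 that oxidizes polycyclic aromatic compounds, had FPKM of 23.8 at 24 h and 32.9 at 48 h with the extract, against 0.585 and 3.26 with 5-FU and 0.932 and 0.988 in control cells. The extract libraries lay far above the 5-FU and control libraries, and the 5-FU 48 h library stood above the controls. The gene lies at chr15:74719542-74725536 in the deposited coordinates. CYP1B1, a related enzyme that also hydroxylates estrogens, had FPKM of 22 at 24 h and 26.2 at 48 h with the extract, 3.87 and 2.33 with 5-FU and 9.09 and 9.05 in control cells. Here the groups did not overlap and the order was extract, control, 5-FU at both times. The difference of CYP1B1 was 2.63 (SE 0.24, adjusted p = 0.01), made up of 1.31 against control for the extract and -1.32 for 5-FU. AHRR, the repressor that limits the receptor, was higher by 0.82 (SE 0.20, adjusted p = 0.042), with FPKM of 2.04 and 2.52 against 0.946 and 0.775. The median of the list was 0.36 (0.17 at 24 h and 0.60 at 48 h), beside -0.04 over all genes, and 0.13 without the 5-FU 48 h library and 0.60 without the 5-FU 24 h library. TIPARP, another target of the receptor, differed by 0.32 (SE 0.20, adjusted p = 0.3), and NQO1, a quinone reductase that this receptor and NRF2 both control, had FPKM of 279 and 223 with the extract and 269 and 231 with 5-FU.

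The core of the aryl hydrocarbon receptor motif, GCGTG, lies 57 bases before the start of CYP1A1 on the strand of the gene. The promoter of CYP1A1 is shown because this gene had the second highest difference of the comparison, with the core in capitals, from 250 bases before to 50 bases after the start in RefSeq, GRCh38.p14, chr15:74725479-74725778, minus strand.
CYP1A1: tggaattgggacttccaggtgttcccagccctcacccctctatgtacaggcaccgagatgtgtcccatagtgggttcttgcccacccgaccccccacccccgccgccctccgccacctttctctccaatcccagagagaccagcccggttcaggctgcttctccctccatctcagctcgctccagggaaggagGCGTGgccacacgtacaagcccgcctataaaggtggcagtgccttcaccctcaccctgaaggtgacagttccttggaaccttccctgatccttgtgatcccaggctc
Searched on both strands, GCGTG occurred in the promoters of 7 of 8 aryl hydrocarbon receptor genes with an entry, in 58.7% of 9321 tested genes with a promoter and in 36.5% of 35116 RefSeq promoters.

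The NRF2 list, of antioxidant genes, split. Of 18 tested genes 3 were higher and 1 was lower, beside 6.1% and 4.69% of all genes. The list's median was 0.13, which took the other sign without the 5-FU 24 h or the extract 24 h library. The higher ones were ABCC3, an exporter of conjugated compounds (1.62, SE 0.35, adjusted p = 0.031; 1.02 without the 5-FU 48 h library), TKT, the transketolase of the pentose phosphate pathway (1.01, SE 0.24, adjusted p = 0.037), and PGD, which makes NADPH in that pathway (0.93, SE 0.21, adjusted p = 0.033). OSGIN1, an oxidative stress gene, was lower, at -1.30 (SE 0.27, adjusted p = 0.028). HMOX1, the heme oxygenase, had FPKM of 11.4 at 24 h and 6.94 at 48 h with the extract against 21.4 and 32.5 with 5-FU, a difference of -1.47 (SE 0.76, adjusted p = 0.22) that did not pass the test and was -0.54 without the extract 48 h library and -2.39 without the extract 24 h library. AKR1B10, an aldo-keto reductase, had 1.48 (SE 0.60, adjusted p = 0.13; 0.54 without the 5-FU 48 h library and 2.42 without the 5-FU 24 h library) and did not pass either.

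Of 9 chemokine genes, which encode secreted attractants of leukocytes, 5 were higher with the extract. CXCL1, an attractant of neutrophils, had FPKM of 11.6 at 24 h and 12.2 at 48 h with the extract, 0.847 and 0.44 with 5-FU and 1.28 and 2.21 in control cells. Both 5-FU libraries lay below both controls and both extract libraries above them. The difference was 2.98 (SE 0.23, adjusted p = 0.0093), and the read ratio of extract to 5-FU was 13.7 (9.25 to 21.2) at 24 h and 27.7 (14.9 to 58.3) at 48 h, with exact 95% intervals that cover counting error only. CXCL8, which encodes interleukin 8, had FPKM of 31.7 at 24 h and 46.9 at 48 h with the extract against 9.93 and 5.3 with 5-FU, a difference of 2.25 (SE 0.40, adjusted p = 0.021) and of 1.43 without the 5-FU 48 h library. CCL20, an attractant of dendritic cells and lymphocytes, had 11 and 8.22 against 0.939 and 1.8, a difference of 2.17 (SE 0.26, adjusted p = 0.011). Neither gene overlapped between the treatments. CXCL3 differed by 1.41 (SE 0.24, adjusted p = 0.021) and CXCL2 by 1.21 (SE 0.28, adjusted p = 0.035). CXCL1, CXCL2 and CXCL3 are near-identical in part, and the sources used here do not say how shared reads were assigned. Of 9 chemokines tested (of 16 listed), 5 were higher and none lower, and the median was 1.21 (1.02 at 24 h and 1.31 at 48 h). It was 0.49 with a pseudocount of 5 and 2.17 with a filter at FPKM 5, which keeps fewer of the genes. The medians against control were 1.10 for the extract and 0.07 for 5-FU. CCL5 and CXCL16 had differences below 0, of -0.61 and -0.65, and did not pass the test. CD14, a monocyte marker, had FPKM of 6.49 and 6.41 with the extract and 1.89 and 3.6 with 5-FU; PTPRC at 0 in both extract libraries is given above.

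A stretch of 60 bases with the letters GGNNTTTCC, which many NF-kB motifs contain, is shown for the promoters of these 5 genes and of TNFAIP3, because all 5 chemokine genes past the test had it. Capitals mark the letters on either strand, and sequences are RefSeq, GRCh38.p14.
CXCL1: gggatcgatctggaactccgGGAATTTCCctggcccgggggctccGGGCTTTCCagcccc
CXCL2: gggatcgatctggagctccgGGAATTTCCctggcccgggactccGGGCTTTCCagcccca
CXCL3: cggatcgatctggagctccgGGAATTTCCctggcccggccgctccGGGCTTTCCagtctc
CXCL8: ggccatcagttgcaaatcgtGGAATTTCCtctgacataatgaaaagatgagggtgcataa
CCL20: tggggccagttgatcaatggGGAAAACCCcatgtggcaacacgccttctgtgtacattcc
TNFAIP3: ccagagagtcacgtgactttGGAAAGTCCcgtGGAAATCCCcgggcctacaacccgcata
They lie at chr4:73869295-73869354 on the plus strand, chr4:74099233-74099292 on the minus strand, chr4:74038728-74038787 on the minus strand, chr4:73740458-73740517 on the plus strand, chr2:227813743-227813802 on the plus strand and chr6:137867172-137867231 on the plus strand. The match of CXCL8 begins 91 bases before the start, and the 2 matches of CXCL1 begin 78 and 53 bases before it. CXCL1, CXCL2 and CXCL3 share nearly the same stretch, so they are not separate instances. The letters occurred in 5 of 6 chemokine promoters with an entry and in 13 of 17 of NF-kB subunit and feedback genes, against 9.09% of tested genes and 6.26% of RefSeq promoters. Of those 17 NF-kB list genes only 1, TNFAIP3, was past the test, so most carried the letters without a call. These are matches of letters and no measure of binding.

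TNFAIP3, an inhibitor of NF-kB that NF-kB itself induces, had FPKM of 3.18 at 24 h and 2.34 at 48 h with the extract against 0.315 and 0.704 with 5-FU and 0.541 and 0.452 in control cells, a difference of 1.32 (SE 0.32, adjusted p = 0.041). It was the only one of 19 tested NF-kB subunit and feedback genes to pass, a count near the share of all genes (6.1% higher and 4.69% lower). NFKBIA, the main inhibitor of the pathway, had 25.6 and 25.6 against 16.2 and 17.6 and did not pass (0.57, SE 0.20, adjusted p = 0.095). The list's median was 0.46 at 24 h and -0.19 at 48 h, so the 2 times differed in sign, and the difference between the times was not tested. The subunits RELA and RELB had differences of -0.45 and -0.29.

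Some genes of secreted defence proteins were also higher with the extract. C3, the central complement protein, had FPKM of 19.3 at 24 h and 23.2 at 48 h with the extract against 0.165 and 0.26 with 5-FU and 0.155 and 0.2 in control cells. Its read ratio of extract to 5-FU was 117 (82.7 to 171) at 24 h and 89.2 (64.3 to 128) at 48 h. LCN2, the lipocalin that withholds iron from bacteria, had 1177 at 24 h and 1098 at 48 h with the extract, 249 and 406 with 5-FU and 199.6 and 242 in control cells. Its difference was 1.84 (SE 0.39, adjusted p = 0.03), and the 3 groups did not overlap. SAA1, a serum amyloid A, had 10.3 and 25.2 with the extract against 0.361 and 3.97 with 5-FU, a difference of 2.73 (SE 0.43, adjusted p = 0.018); SAA2 is a close copy, so the split of reads between them is uncertain. C1RL, a protease related to complement C1r, had another order, with 8.38 and 10.1 with the extract, 6.64 and 8.68 in control cells and 1.43 and 0.566 with 5-FU (2.39, SE 0.25, adjusted p = 0.01). WFDC2, a secreted protease inhibitor, was higher by 1.15 (SE 0.25, adjusted p = 0.031), with the 48 h library above the 24 h library in each of the 3 groups. S100A9, a subunit of calprotectin, had 63.4 and 131 against 5.3 and 18.8, and its partner S100A8 was below the filter. Of 17 tested genes of this list (of 31), 6 were higher and none lower, with a median of 0.90 (0.24 with a pseudocount of 5) and medians against control of 0.94 for the extract and 0.72 for 5-FU. SLPI, a secreted antiprotease, had a difference of -1.60 and did not pass.

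Of 21 tested interferon-stimulated genes 3 were lower with the extract, 1 was higher and 17 passed in neither direction. IFIT2, an antiviral protein induced by interferon, had FPKM of 0.695 at 24 h and 1.46 at 48 h with the extract, 5.57 and 5.02 with 5-FU and 2.15 and 1.99 in control cells. Control cells lay between the treatments at both times, and the difference was -1.62 (SE 0.22, adjusted p = 0.014). The other lower genes were IFIT3 (-1.16, SE 0.21, adjusted p = 0.021) and USP18 (-0.75, SE 0.19, adjusted p = 0.041), and the higher one was STAT2, a factor of interferon signalling (0.80, SE 0.18, adjusted p = 0.033). In all, 19 of 21 had a difference below 0, with a median of -0.48 and medians against control of 0.04 for the extract and 0.71 for 5-FU. Among 17 HLA class I antigen presentation genes, HLA-B (1.53, SE 0.33, adjusted p = 0.03) and HLA-F (1.30, SE 0.27, adjusted p = 0.028) were higher, none was lower, and the median was -0.03, which took the other sign without the 5-FU 48 h library. HLA class I genes resemble each other, and reads may be shared among them.

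**Figure D2:**
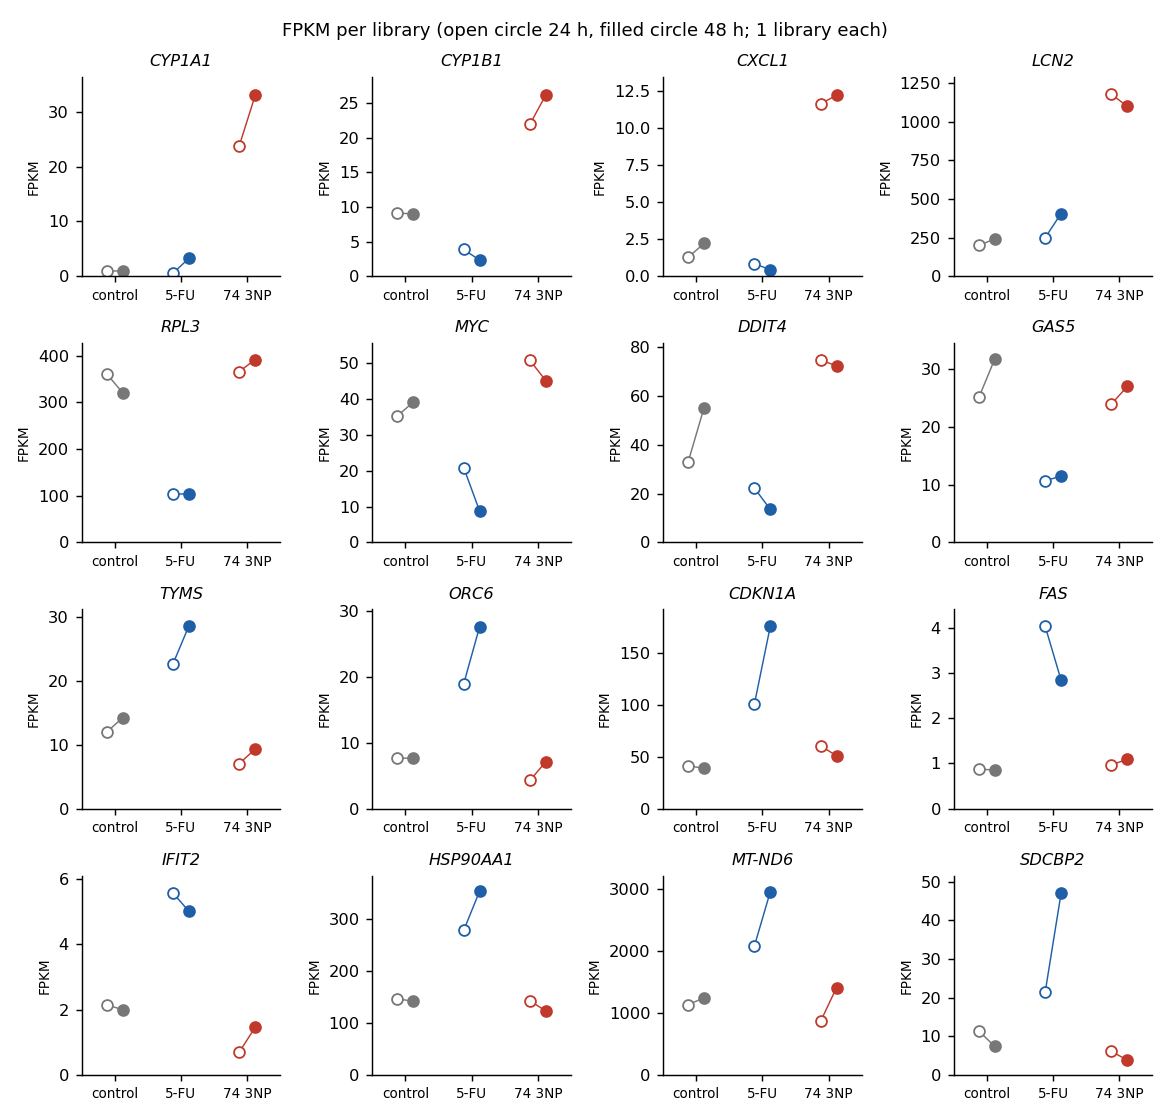
FPKM (y axis, linear, from 0) of 16 genes in the control, 5-FU and 74 3NP extract libraries; open circles are 24 h and filled circles 48 h, with 1 library per circle and no error bar. In every panel both extract libraries lie on one side of both 5-FU libraries. All 16 genes were picked from those past the test in these libraries, so this separation comes with the choice. For RPL3, GAS5, FAS and HSP90AA1 the extract lies near the control.

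Many genes of S phase entry and DNA replication were lower with the extract than with 5-FU. ORC6, a subunit of the origin recognition complex, had FPKM of 4.3 at 24 h and 7.13 at 48 h with the extract, 19 and 27.6 with 5-FU and 7.69 and 7.65 in control cells. Both extract libraries were below both controls, and both 5-FU libraries were above them. The difference was -1.86 (SE 0.22, adjusted p = 0.011), of which 1.46 was 5-FU minus control and -0.40 extract minus control. CDC6, which loads the replicative helicase, had 8.41 and 9.94 against 27.4 and 26.4 (-1.46, SE 0.26, adjusted p = 0.021). CLSPN, the checkpoint adaptor claspin, had 2.65 and 2.78 against 10.8 and 7.69 (-1.45, SE 0.21, adjusted p = 0.015). The licensing factor CDT1 differed by -1.18 (SE 0.25, adjusted p = 0.031) and the sliding clamp PCNA by -1.17 (SE 0.29, adjusted p = 0.041). Of 40 G1/S and replication genes, all tested, 16 were lower and none higher, 35 had a difference below 0, and the median was -0.64 (-0.81 at 24 h and -0.57 at 48 h). Their medians against control were -0.15 for the extract and 0.52 for 5-FU.

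Several kinase and cyclin genes of this step were lower too. CDK2, the kinase of S phase, differed by -1.36 (SE 0.23, adjusted p = 0.02), and its partner CCNE2, cyclin E2, by -1.33 (SE 0.24, adjusted p = 0.021). E2F1 and E2F2, transcription factors of S phase genes, differed by -1.16 (SE 0.30, adjusted p = 0.045) and -1.15 (SE 0.22, adjusted p = 0.025). CCND3, cyclin D3, had FPKM of 23.1 and 21.6 with the extract, 41.7 and 63.1 with 5-FU and 15.7 and 17 in control cells (-1.17, SE 0.24, adjusted p = 0.029). CCND1, cyclin D1, did not pass (0.39, SE 0.22, adjusted p = 0.26; 0.24 without the extract 48 h library). Of 20 tested cyclin, CDK inhibitor and RB family genes 6 were lower and none higher. Of 33 tested G2/M and mitosis genes 5 were lower and none higher, among them the mitotic kinase CDK1 (-1.21, SE 0.29, adjusted p = 0.038; -0.80 without the extract 24 h library), CCNA2, cyclin A2 (-1.22, SE 0.31, adjusted p = 0.044), and the spindle checkpoint gene MAD2L1 (-1.24, SE 0.26, adjusted p = 0.03). Their median was -0.52 (-0.27 at 24 h and -0.74 at 48 h) and stood at -0.09 without the 5-FU 48 h library. CCNB1, cyclin B1, had FPKM of 51.6 and 56.3 with the extract and 53.5 and 92.9 with 5-FU, so the treatments overlapped, and its difference of -0.38 (SE 0.39, adjusted p = 0.52) turned to 0.23 without the 5-FU 48 h library.

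The letters TTTNNCGC are a loose form of the E2F motif, in which N is any base. They are shown in 60 bases of the promoters of 5 genes of replication and dTMP synthesis that were lower with the extract. At the open bases the match of ORC6 has T and G, where the others have only G or only C. These are matches of letters and no measure of binding. The motif was chosen after the values were seen. Capitals mark the letters on either strand, from RefSeq, GRCh38.p14.
ORC6: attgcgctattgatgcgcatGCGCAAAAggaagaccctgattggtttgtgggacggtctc
CDC6: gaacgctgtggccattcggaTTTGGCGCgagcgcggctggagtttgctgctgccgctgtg
CLSPN: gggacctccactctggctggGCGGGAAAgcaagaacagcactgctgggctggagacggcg
PCNA: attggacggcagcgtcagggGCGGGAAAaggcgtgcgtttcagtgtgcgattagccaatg
TYMS: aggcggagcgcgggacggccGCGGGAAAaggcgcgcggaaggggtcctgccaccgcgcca
They lie at chr16:46689516-46689575 (plus strand), chr17:40287866-40287925 (plus), chr1:35769944-35770003 (minus), chr20:5126642-5126701 (minus) and chr18:657594-657653 (plus). The letters occurred in 23 of 35 G1/S and replication promoters with an entry, in 11 of the 16 of these genes past the test, in 13% of tested genes and in 6.89% of RefSeq promoters.

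Genes of nucleotide synthesis differed in both directions. TYMS, thymidylate synthase and the target of 5-FU, had FPKM of 7.07 at 24 h and 9.33 at 48 h with the extract, 22.7 and 28.7 with 5-FU and 12 and 14.3 in control cells. The 3 groups did not overlap, with 5-FU highest. The difference was -1.54 (SE 0.29, adjusted p = 0.023), and the read ratio of extract to 5-FU was 0.311 (0.274 to 0.351) at 24 h and 0.325 (0.29 to 0.364) at 48 h. TK1, the thymidine kinase that salvages thymidine, had 129.8 and 149.6 with the extract, 257 and 472 with 5-FU and 131 and 146 in control cells (-1.32, SE 0.29, adjusted p = 0.032). The ribonucleotide reductase subunits RRM1 and RRM2 differed by -1.20 (SE 0.24, adjusted p = 0.027) and -1.33 (SE 0.24, adjusted p = 0.021). UMPS, which ends UMP synthesis and also activates 5-FU, was lower, at -0.80 (SE 0.19, adjusted p = 0.04). The steps before it were higher with the extract, CAD by 0.92 (SE 0.19, adjusted p = 0.029) and DHODH by 0.92 (SE 0.19, adjusted p = 0.028), as was FPGS, which adds glutamates to folates (0.80, SE 0.19, adjusted p = 0.036). In all, 6 of 24 genes were lower and 3 higher, with a median of 0.07 that took the other sign in 3 of the 20 alternatives. Of 10 tested genes of 5-FU activation and breakdown, TK1 and UMPS were lower and none was higher. TYMP, thymidine phosphorylase, had FPKM of 6.43 and 6.81 with the extract against 1.12 and 1.6 with 5-FU and did not pass (1.70, SE 0.49, adjusted p = 0.057), and UPP1, uridine phosphorylase, had 12.2 and 6.87 against 13 and 26.5 (-0.94, SE 0.41, adjusted p = 0.15; -0.11 without the 5-FU 48 h library and -1.77 without the 5-FU 24 h library). DPYD, which breaks 5-FU down, was below the filter.

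DNA repair genes were lower with the extract in 10 of 31 cases and higher in none. FANCG, of the Fanconi anemia core complex, had FPKM of 11.2 at 24 h and 12.7 at 48 h with the extract against 26.4 and 30.5 with 5-FU (-1.18, SE 0.19, adjusted p = 0.018). XRCC2 and XRCC3, which act in homologous recombination, differed by -1.15 (SE 0.21, adjusted p = 0.021) and -1.02 (SE 0.19, adjusted p = 0.023). ATM, a kinase that senses DNA breaks, had a difference of 0.60 and did not pass. The list's median was -0.51 (-0.77 at 24 h and -0.25 at 48 h) and stood at -0.32 without the 5-FU 24 h library.

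Of 28 tested p53 targets 6 were lower with the extract and 1 was higher, against 4.69% and 6.1% of all genes. CDKN1A, which encodes the CDK inhibitor p21, had FPKM of 60.7 at 24 h and 50.9 at 48 h with the extract, 101 and 176 with 5-FU and 41.4 and 38.9 in control cells. The extract lay between the others at both times, and the difference was -1.25 (SE 0.30, adjusted p = 0.039). FAS, the death receptor, had 0.969 and 1.09 with the extract, 4.04 and 2.85 with 5-FU and 0.875 and 0.853 in control cells (-1.12, SE 0.22, adjusted p = 0.025). Its extract libraries were close to the controls, at 0.12 against 1.24 for 5-FU. MDM2, the ubiquitin ligase of p53, differed by -0.94 (SE 0.22, adjusted p = 0.037), with the 5-FU 24 h library at 8.94 and the 5-FU 48 h library at 4.38. PMAIP1, the BH3-only protein NOXA, had 4.94 and 4.04 with the extract against 9.61 and 9.27 in control cells and 13.7 and 12.4 with 5-FU, so the extract lay below both (-1.35, SE 0.26, adjusted p = 0.025). AEN, an apoptosis nuclease, and SFN, the 14-3-3 protein sigma, differed by -1.12 (SE 0.27, adjusted p = 0.038) and -1.10 (SE 0.24, adjusted p = 0.032). PLK2, a polo-like kinase, was higher by 1.21 (SE 0.29, adjusted p = 0.037). In all, 22 of the 28 had a difference below 0, and the median was -0.57 (-0.38 without the extract 48 h library), with medians against control of -0.13 for the extract and 0.37 for 5-FU. Of 29 tested genes of death receptors, caspases and the BCL2 family 2 were lower, FAS among them, and none was higher, a share near the 4.69% of all genes; BCL2 did not pass the filter.

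Some genes of ribosome production were higher with the extract. MYC, a transcription factor of growth, had FPKM of 50.8 at 24 h and 45.1 at 48 h with the extract, 20.8 and 8.75 with 5-FU and 35.3 and 39.1 in control cells. The 5-FU libraries were the lowest and the groups did not overlap (1.74, SE 0.31, adjusted p = 0.021). RRS1, a ribosome assembly factor, had 27.6 and 19.5 against 10.3 and 5.4 (1.51, SE 0.21, adjusted p = 0.014), and RRP12, which exports the small subunit, differed by 0.72 (SE 0.19, adjusted p = 0.047). These were 3 of 27 tested genes of the MYC and ribosome biogenesis list, with none lower, beside 6.1% and 4.69% of all genes. The other 24 passed in neither direction, and the list's median was 0.30 (0.18 with a pseudocount of 5). RPL3, a protein of the large subunit, had FPKM of 366 at 24 h and 391.8 at 48 h with the extract, 103 and 104 with 5-FU and 361 and 321 in control cells. The extract libraries lay just above the controls, and 5-FU lay far below both (1.86, SE 0.21, adjusted p = 0.01). For RPL10A extract and control overlapped and 5-FU lay below both, with FPKM of 352 and 451 with the extract, 123 and 129 with 5-FU and 363 and 386 in control cells (1.65, SE 0.21, adjusted p = 0.013). Of 51 cytosolic ribosomal protein genes 9 were higher and none lower, against 6.1% and 4.69% of all genes. A difference above 0 was found in 48, and the median was 0.37, with medians against control of 0.14 for the extract and -0.29 for 5-FU. Ribosomal protein genes took 5.37% and 6.20% of reads with the extract, 3.91% and 3.93% with 5-FU and 5.29% and 5.51% in control cells. Ribosomal protein genes have many processed pseudogenes, and reads may be split between them. Of 18 RNA exosome and rRNA decay genes none was higher or lower in the limma test, and the median was -0.09.

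Hosts of small nucleolar RNAs, whose spliced transcripts are unstable when translated, were higher with the extract in 3 of 17 cases and lower in none, beside 6.1% and 4.69% of all genes. GAS5 had FPKM of 23.9 at 24 h and 26.9 at 48 h with the extract, 10.7 and 11.4 with 5-FU and 25 and 31.7 in control cells. The 5-FU libraries lay below those of the extract and the control, and the difference was 1.13 (SE 0.19, adjusted p = 0.02). SNHG8 (0.80, SE 0.20, adjusted p = 0.044) and EPB41L4A-AS1 (1.01, SE 0.22, adjusted p = 0.031) were also higher. Of the 17 hosts 13 had a difference above 0 and 4 below, with a median of 0.49. SNHG1 lay farthest below 0 and did not pass (-1.09, SE 0.42, adjusted p = 0.12; -0.41 without the 5-FU 48 h library and -1.77 without the 5-FU 24 h library). The sources used here do not say whether the libraries keep the strand, so reads of EPB41L4A-AS1 and of its antisense partner cannot be told apart.

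All 13 protein transcripts of the mitochondrial genome had lower FPKM with the extract at both times, but 1 of 13 passed the test. MT-ND6, a subunit of respiratory complex I, had FPKM of 863 at 24 h and 1406 at 48 h with the extract, 2077 and 2950.0 with 5-FU and 1132 and 1238 in control cells. It was the one that passed (-1.17, SE 0.28, adjusted p = 0.039), with 5-FU above control by 1.06. MT-ND1 had 1246 and 1808 against 2523 and 3576 and did not pass (-1.0, SE 0.34, adjusted p = 0.091). Control cells were nearer to the extract than to 5-FU in all 13. The median was -0.68, and -0.12 after quantile normalization, which kept its sign. Most of the 13 genes, though not MT-ND6, are cut from a shared precursor transcript and are not independent.

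Of 18 tested chaperones 3 were lower with the extract and none higher, beside 4.69% and 6.1% of all genes. HSP90AA1, the inducible form of HSP90, had FPKM of 143 at 24 h and 122 at 48 h with the extract, 278 and 354 with 5-FU and 146 and 142 in control cells. Extract and control differed by -0.12, and extract and 5-FU by -1.24 (SE 0.25, adjusted p = 0.027). The co-chaperones DNAJA1 and DNAJB4 were lower, at -1.21 (SE 0.21, adjusted p = 0.021) and -1.03 (SE 0.24, adjusted p = 0.037). HSPH1, of the HSP110 family, had 23.3 and 15.6 against 58.4 and 55.2 and did not pass (-1.52, SE 0.43, adjusted p = 0.056), nor did the small chaperone HSPB1 (-0.85, SE 0.29, adjusted p = 0.089; -0.46 without the 5-FU 48 h library and -0.51 without the extract 48 h library). In all, 17 of the 18 had a difference below 0, with a median of -0.57 (-0.32 without the extract 48 h library and -0.97 without the extract 24 h library) and medians against control of 0.06 for the extract and 0.66 for 5-FU. Of 30 proteasome subunits tested, PSMC3, an ATPase of the cap, was lower (-1.25, SE 0.31, adjusted p = 0.042; -0.81 without the 5-FU 48 h library), none was higher and 26 were below 0, with a median of -0.44 (-0.17 without the 5-FU 48 h library and -0.69 without the 5-FU 24 h library). The share of proteasome genes past the test was below that of all genes. Of 24 autophagy and lysosome genes tested, 2 were lower, against 4.69% of all genes. MAP1LC3B, the autophagosome protein LC3B, had 12.9 and 13 against 27 and 60.3 (-1.57, SE 0.33, adjusted p = 0.029; -0.96 without the 5-FU 48 h library), and GLA, the lysosomal alpha-galactosidase, differed by -1.56 (SE 0.24, adjusted p = 0.018).

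Of 29 integrated stress response and ER stress genes 1 was lower and 1 higher, against 4.69% and 6.1% of all genes. The list's median of -0.14 took the other sign without the 5-FU 24 h or the extract 48 h library. ATF5, a transcription factor of this response, had FPKM of 4.17 at 24 h and 4.16 at 48 h with the extract, 15.8 and 31 with 5-FU and 10.1 and 7.99 in control cells, and the 3 groups did not overlap. DDIT4, an inhibitor of the growth kinase mTORC1, had 74.7 at 24 h and 72.4 at 48 h with the extract, 22.3 and 13.5 with 5-FU and 33 and 55.3 in control cells. Its order was the reverse of that of ATF5 (2.02, SE 0.35, adjusted p = 0.021). ATF3, a stress transcription factor, did not pass (-1.31, SE 0.37, adjusted p = 0.056; -0.80 without the extract 48 h library).

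**Figure D3:**
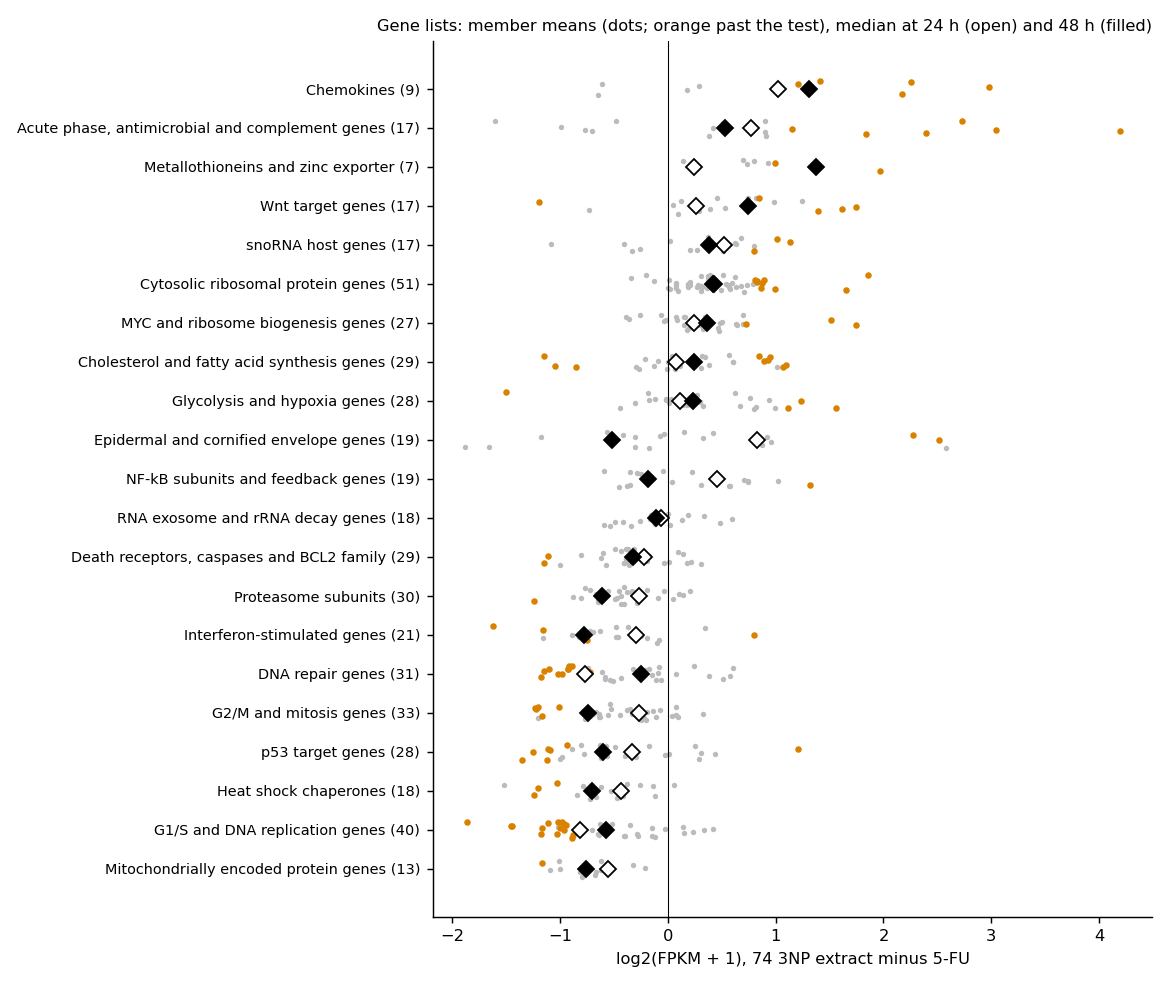
Difference between the 74 3NP extract and 5-FU in log2(FPKM + 1) (x axis) for the tested members of 21 gene lists (y axis, with the number tested): dots are members averaged over both times, orange where past the limma test, and diamonds are list medians at 24 h (open) and 48 h (filled). Of the lists drawn, chemokines have the highest median at 24 h (1.02), and the medians of the epidermal and the NF-kB lists lie on opposite sides of 0 at the 2 times.

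Metal and metabolic genes differed member by member. The metallothionein MT1G had FPKM of 5.59 at 24 h and 4.09 at 48 h with the extract against 0.398 and 0.559 with 5-FU and 1.35 and 0.407 in control cells (1.97, SE 0.48, adjusted p = 0.039), and MT1E was higher too (0.99, SE 0.23, adjusted p = 0.036). Metallothioneins bind zinc and copper, and as close copies they may share reads. MT2A did not pass (0.80, SE 0.22, adjusted p = 0.051), and 2 of 7 tested genes were higher, with a median of 0.80 (0.24 at 24 h and 1.37 at 48 h), which was 0.30 without the 5-FU 48 h library and 1.31 without the 5-FU 24 h library. In the list of glycolysis and hypoxia, CA9, a carbonic anhydrase induced by hypoxia, had 8.68 at 24 h and 33.4 at 48 h with the extract against 5.13 and 5.29 with 5-FU (1.55, SE 0.36, adjusted p = 0.036; 1.03 without the 5-FU 48 h library and 0.88 without the extract 48 h library). The extract 48 h library was the high one. PFKL, a phosphofructokinase, was higher by 1.23 (SE 0.22, adjusted p = 0.021), EGLN3, an oxygen sensor, by 1.11 (SE 0.26, adjusted p = 0.037) (0.68 without the 5-FU 48 h library), and ADM, the peptide adrenomedullin, was lower, at -1.50 (SE 0.28, adjusted p = 0.023). These were the 4 of 28 tested genes past the test. Among 29 tested genes of cholesterol and fatty acid synthesis 6 were higher and 3 lower. FASN, the fatty acid synthase, and SCD, the stearoyl-CoA desaturase, were higher by 1.09 (SE 0.22, adjusted p = 0.027) and 1.07 (SE 0.23, adjusted p = 0.031), while IDI1 and SC5D, enzymes of the cholesterol branch, were lower, at -1.15 (SE 0.26, adjusted p = 0.033) and -1.05 (SE 0.23, adjusted p = 0.032). Of 14 tested genes of fatty acid oxidation and PPAR targets none passed in limma, with a median of 0.12 (0.28 without the 5-FU 24 h library, 0.03 without the extract 48 h library).

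Epithelial genes gave a mixed picture. KRT23, a keratin, had FPKM of 6.2 at 24 h and 4.67 at 48 h with the extract against 0.147 and 0.515 with 5-FU and 0.712 and 0.57 in control cells (2.28, SE 0.26, adjusted p = 0.01). KRT6B, a keratin of stressed epidermis, had 10.9 and 5.08 against 0.724 and 0.286 (2.51, SE 0.32, adjusted p = 0.012). PADI3, a peptidylarginine deiminase of skin, had 5.99 and 5.43 against 0.161 and 0.0752 and did not pass (2.58, SE 0.70, adjusted p = 0.051), while PADI2 of the same family did (2.41, SE 0.57, adjusted p = 0.038). Of 19 tested epidermal genes 2 were higher and none lower; 16 had a difference above 0 at 24 h and 5 at 48 h. CDX2, the transcription factor of intestinal identity, had 3.22 and 6.24 with the extract against 1.31 and 1.5 with 5-FU (1.20, SE 0.22, adjusted p = 0.022), and VIL1, villin of the brush border, differed by 1.08 (SE 0.26, adjusted p = 0.039). MUC13, a membrane mucin, had 20.9 and 17.6 with the extract, 47.4 and 94.3 with 5-FU and 22.2 and 20.9 in control cells (-1.75, SE 0.31, adjusted p = 0.021). CDX2 and VIL1 were the higher and MUC13 the lower gene past the test among 19 tested genes of colon differentiation, whose median was 0.29 (0.46 without the 5-FU 48 h library). Of 24 junction genes tested, 2 were lower and none higher, beside 4.69% and 6.1% of all genes. Occludin, OCLN, was among the lower ones (-0.94, SE 0.22, adjusted p = 0.036).

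Wnt target genes had a median of 0.53, with 15 of 17 tested genes above 0, 4 higher and 1 lower. NKD2 and NOTUM, feedback inhibitors of Wnt signalling, had FPKM of 5.84 and 6.35 and of 2.79 and 2.31 with the extract, against 1.12 and 1.54 and 0.396 and 0.309 with 5-FU. Neither overlapped between the treatments, and they differed by 1.61 (SE 0.25, adjusted p = 0.018) and 1.39 (SE 0.32, adjusted p = 0.034). MYC is on this list too. In the list of MAPK feedback and EGF receptor genes, HBEGF, a ligand of the EGF receptor, had 3.4 at 24 h and 1.8 at 48 h with the extract and 6.03 and 19.2 with 5-FU (-1.76, SE 0.44, adjusted p = 0.043; -0.95 without the 5-FU 48 h library and -1.13 without the extract 48 h library). DUSP4, a phosphatase that limits ERK, was higher by 0.90 (SE 0.19, adjusted p = 0.03). In all, 1 of 22 tested genes was higher and 2 were lower, beside 6.1% and 4.69% of all genes. Of 21 tested immediate early genes 1 was lower and none higher, against 4.69% and 6.1% of all genes. FOSL1, an AP-1 subunit, did not pass (-1.63, SE 0.45, adjusted p = 0.053, and -0.94 without the extract 48 h library). The AP-1 letters TGACTCA, searched on both strands, occurred in 1 of 17 immediate early gene promoters with an entry, against 4.83% of tested genes and 4.95% of RefSeq promoters. Among 13 tested mesenchymal transition genes, the protease urokinase, PLAU (-1.38, SE 0.22, adjusted p = 0.018), its receptor PLAUR (-1.24, SE 0.32, adjusted p = 0.045; -0.63 without the 5-FU 48 h library) and the metalloprotease MMP24 (-1.26, SE 0.33, adjusted p = 0.046; -0.77 without the 5-FU 48 h library) were lower, and LGALS1, the lectin galectin-1, was higher, with FPKM of 125 and 85.3 against 8.77 and 15.

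Of 13 tested histone genes 1 was higher and none lower, beside 6.1% and 4.69% of all genes. The list's median was 0.51 at 24 h and -0.36 at 48 h. H2AW had a difference of 1.81 (SE 0.54, adjusted p = 0.065; 0.76 without the 5-FU 24 h library and 2.85 without the 5-FU 48 h library) and did not pass.

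Outside the lists, the largest differences by the naming rule held genes of varied roles. LHPP, a phosphatase, had FPKM of 14.8 at 24 h and 17.3 at 48 h with the extract, 2.46 and 1.09 with 5-FU and 8.28 and 11.7 in control cells (2.66, SE 0.29, adjusted p = 0.01). MFSD3, a predicted transporter (2.55, SE 0.29, adjusted p = 0.01), CITED4, a transcriptional coactivator (2.53, SE 0.28, adjusted p = 0.01), and ABCA2, a lipid transporter (2.49, SE 0.43, adjusted p = 0.021), had the same order, with extract above control and 5-FU below it at both times. SERPINH1, the collagen chaperone HSP47, had 13.9 at 24 h and 16.9 at 48 h with the extract, 44.7 and 74.4 with 5-FU and 21.9 and 25.2 in control cells. It was lower, at -1.85 (SE 0.23, adjusted p = 0.012), with no overlap among the 3 groups. SMPD1, the lysosomal acid sphingomyelinase (-1.78, SE 0.30, adjusted p = 0.019), ADI1, an enzyme of methionine salvage (-1.73, SE 0.33, adjusted p = 0.025), NDUFC2, a subunit of complex I (-1.69, SE 0.34, adjusted p = 0.027), and PRSS2, a trypsinogen (-1.83, SE 0.26, adjusted p = 0.014), were lower as well. PRSS2 has near-identical relatives that may share its reads. The other lower genes rested more on 48 h. SDCBP2, syntenin-2, had 21.4 at 24 h and 47 at 48 h with 5-FU against 6.06 and 3.82 with the extract, and its difference was -1.57 without the 5-FU 48 h library, against -2.49 with it. MAB21L4 (-2.37), ERP27, a protein of the endoplasmic reticulum (-2.07), and TCAP, a sarcomere protein (-1.88), stood at -1.19, -1.15 and -1.08 without that library. VASN, vasorin, had 8.5 and 20.5 with 5-FU against 2.1 and 2.35 with the extract and 1.49 and 1.89 in control cells.

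**Figure D4:**
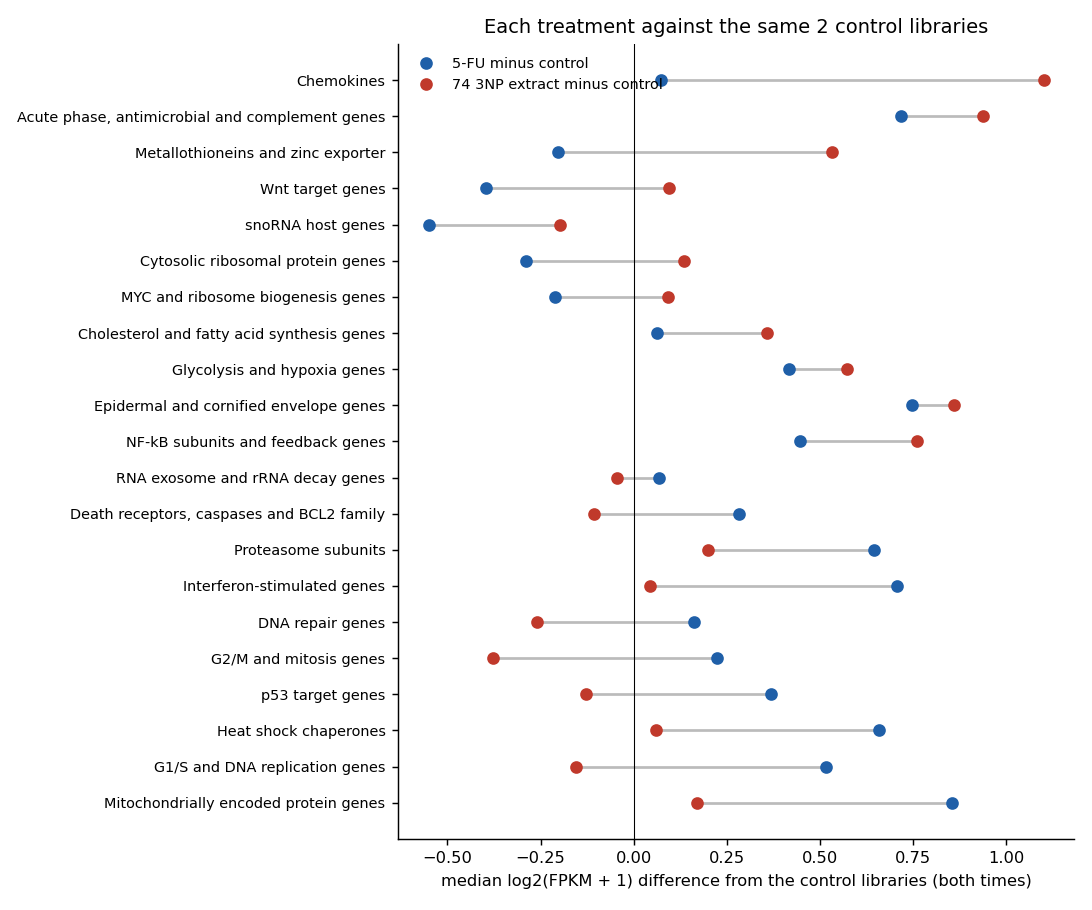
Median difference from the control libraries, in log2(FPKM + 1) over both times (x axis), of the same 21 gene lists (y axis) for 5-FU (blue) and the 74 3NP extract (red); there are no error bars, and both colours share the same 2 control libraries. The extract lies nearer to 0 than 5-FU for the mitochondrial, replication, chaperone, interferon and proteasome lists, and farther from 0 for the chemokines (1.10 against 0.07).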

How the data were processed

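RNA from HT-29 cells was sequenced by Illumina, giving 8 libraries. HISAT2 aligned the reads left by a quality filter, per the labels' protocols; the version 2.0.5 and the build GRCh38 are named in the submitters' processing notes, and the tool used for counting is not stated there. Per the file headers, the authors deposited FPKM for each gene beside its length and position. The other deposited table gives, per the file headers, each library's count of raw and of filtered reads (44361052 to 68674126 filtered) and the percent of G and C bases and of bases of high quality. No column of another study was present (0 unused columns of samples).

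Reads were recovered by dividing FPKM times length by the value of 1 read in that library, and 100% of them came out whole within 0.01 reads. Genes with FPKM of 1 or more in 2 libraries were kept, and log2(FPKM + 1) in the 8 libraries was modelled by limma (3.58.1, R 4.3.3) as the sum of a treatment and a time effect, with a trend in the variance. This left 3 residual degrees of freedom, with a median prior of 5.39. The spread thus measures how treatment differences vary between 24 h and 48 h, pooled over 4 treatments; nothing in the labels ties the libraries to separate cultures. Tests were two-sided with Benjamini-Hochberg adjustment over all genes and a threshold of 0.05. Read ratios carry exact 95% intervals for counting error only.

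The members, the 40 gene lists and the rule for naming genes were chosen with earlier results of these data known. Named were the 14 highest and 14 lowest protein-coding genes with mean FPKM of 2 or more in the 4 libraries and a difference of 1.5-fold or more in the same direction at both times, up to 4 genes per list with the same sign at both times, and a set of genes of drug response named whatever their values. A few list members outside the rule are given with their values as exceptions seen in the data (CCL5, CXCL16, RELA, RELB, SLPI, ATM, NQO1, NFKBIA, CD14). Of 929 list entries 2 had no matching gene. Some genes that the rule names are not reported here. Promoters came from RefSeq, GRCh38.p14. Steps were tested on simulated data. Alternatives were a pseudocount of 0.1 or 5, a filter at FPKM 5 or none, quantile normalization, scaling to total reads, no variance trend, only the 4 libraries compared, no time term, voom on the recovered reads, a loess correction for gene length, each library left out in turn and, added after the data were seen, a loess correction for GC content. Tables and plots were made in Python (3.11.15), using scipy 1.17.1, numpy 2.4.6, matplotlib 3.10.9 and pandas 2.3.3.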

Additional observations from a re-analysis of the deposited data

Results flagged for a closer look

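For 3 gene lists the median difference between the 74 3NP extract and 5-FU had opposite signs at the 2 times, on the log2(FPKM + 1) scale. It was 0.46 at 24 h and -0.19 at 48 h for the NF-kB subunits and feedback genes. For the epidermal and cornified envelope genes it was 0.83 and -0.52, and for the replication-dependent histone genes 0.51 and -0.36. Each time rests on 1 library per treatment, so the difference between the times was not tested.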

How the results depend on the processing

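Of the 12 alternatives that kept all 8 libraries or only the 4 compared, 11 gave 1054 to 1867 genes past the test, against 1445. With no filter 0 genes were past the test, 0 higher and 0 lower, although 5378 had an unadjusted p under 0.05; the cause was not tested. Leaving out 1 library in turn gave 0 to 2565 genes, 0 to 1229 higher and 0 to 1336 lower, with 0 where the 5-FU 48 h or either extract library was missing. Scaling to total reads moved the median of all genes from -0.04 to 0.02 and the share of higher calls from 56.5% to 65.1%. The difference of H2AC6, 0.47 in the reported fit, was -0.18 without the 5-FU 24 h library and 1.12 without the 5-FU 48 h library, and that of CCNB1, -0.38, was -1.0 and 0.23 without the same libraries. Of 37 list medians 27 kept their sign in all 20 alternatives. The alternatives that change only the spread, named with the test above, could not move these medians. The fit with time as a term is itself paired by time. Each treatment has 1 library at each time, so the differences are the same without that term and only the spread changes. Without that term, that is with no replicate block, 1054 genes were past the test, 584 higher and 470 lower. Of the named genes 18 were then no longer past it, namely S100A9, SAA1, LCN2, PADI2, PRSS2, AHRR, HLA-B, HLA-F, CCNA2, RRP12, MT-ND6, CA9, ADM, EGLN3, MMP24, SNHG8, VIL1 and MDM2. Depth limits genes near FPKM 1, where few reads carry a value.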

Other observations

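Long non-coding RNAs made up 98 of the 817 genes higher with the extract (12%) and 39 of the 628 lower ones (6.21%), beside 8.07% of all genes tested. The examples below were chosen after their values were seen. LINC01003 had FPKM of 5.47 at 24 h and 5.99 at 48 h with the extract, 0.485 and 0.544 with 5-FU and 5.41 and 6.36 in control cells, a difference of 2.15 (SE 0.18, adjusted p = 0.01 in limma). Extract and control libraries overlapped, and both 5-FU libraries were far below them. LINC01315 had 8.99 and 10.9 with the extract, 1.16 and 0.95 with 5-FU and 4.38 and 6.20 in control cells, a difference of 2.41 (SE 0.23, adjusted p = 0.01).

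At least 1.5-fold differences of opposite sign at the 2 times were found for 96 genes, of which 31 were protein-coding, against 2091 genes with 1.5-fold differences in 1 direction. In 64 of the 96 the extract was higher at 24 h and lower at 48 h. PTGES, the prostaglandin E synthase, had FPKM of 33.8 and 21.1 with the extract and 21.1 and 54.6 with 5-FU. ICAM1, an adhesion molecule for leukocytes, had 21.9 and 16.9 against 12.7 and 30.6. CDC20, an activator of the anaphase-promoting complex, had 74.3 and 66.7 against 48.7 and 123. The transcription factor HOXA13 went from lower to higher, with 4.23 and 7.57 against 10.0 and 3.99. In all 4 genes the 5-FU libraries differed more between the times than the extract libraries did, and with 1 library per treatment and time none of this was tested.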
